A study of Mus musculus with 2 samples.

Results

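Cytosolic ribosomal protein genes code for the proteins of the small and the large subunit of the ribosome that translates nuclear messages. They were taken as every feature whose symbol starts with Rpl or Rps followed by a digit, plus Rplp0, Rplp1, Rplp2 and Rpsa, without the Rps6k kinases. The rule gave 98 of the 32883 features, under 88 symbols, since 8 symbols stand for more than 1 feature. Of these features 81 are core subunits, standing for 73 of 77 listed core symbols (28 of the small subunit, 42 of the large subunit and the 3 stalk proteins). The other 17 are paralogs and genes that only share the name. Rps14, Rps19, Rps26 and Rpl22 were not analysed here.

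The data are lung cells of wild-type animals in 2 droplet libraries (10x Genomics), 1 after sham surgery and 1 taken 6 h after hepatic ischemia-reperfusion (HIR; the liver loses its blood flow and then regains it). With 1 library per group there is no replicate spread and no test, and intervals in the text are exact 95% intervals of a ratio that cover counting error only. The labels name the mouse, while all features carry rat Ensembl identifiers, so symbols are read as the files give them. The sham library held 10719 barcodes and 59566745 UMIs (unique molecular identifiers, tags that count each captured transcript 1 time), the HIR library 9499 and 50801778, and 8574 and 7925 cells were kept. The libraries shared 24 barcodes, 16 of them among kept cells.

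Kept cells were put in a class where at least 3 of its 6 marker genes had a UMI and no other class had as many. This placed 6936 sham and 6525 HIR cells. Compared were the 16 classes that had 50 or more cells in each library, all named X-like because a gate on markers and not the study named them. For short, general capillary endothelium is called general capillary, and smooth muscle or myofibroblast is called smooth muscle. Cells with exactly 3 markers made up 130 of 265 sham and 231 of 1262 HIR neutrophil-like cells, and 38 of 91 and 47 of 174 classical monocyte-like cells. In each gate but 1 the median level of the own markers lay above that of every other list in both libraries. The exception was the nonclassical monocyte gate, in which the own list stood at a median of 11.7 and 12.6 UMIs per 10000 in the sham and HIR libraries, under the alveolar type 2 list at 30.4 and 32.6.

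As background, each ribosome holds 1 copy of nearly every one of these proteins. The small subunit reads the message, the large subunit joins the amino acids, and the stalk (Rplp0 with the acidic proteins Rplp1 and Rplp2) recruits the factors that drive elongation. The genes are transcribed at high levels in growing cells, and their messages begin with a pyrimidine tract at which the growth kinase complex mTORC1 controls translation as a set. Lymphocytes hold small amounts of total RNA with a large part on these genes, while mature neutrophils and red cell precursors shut down most of their ribosome production as they mature.

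Ribosomal protein genes took a very different part of the transcripts in each class, and the order was almost the same in both libraries. Their share of all UMIs was 33.7% in sham and 33.2% in HIR T cell-like cells at one end, and 2.58% and 2.70% in erythroid-like cells at the other, a range of 13.1-fold in the sham and 12.3-fold in the HIR library. T cell-, B cell-, plasmacytoid dendritic cell- and NK cell-like cells held the first 4 places in both libraries. General capillary-, aerocyte-, alveolar type 1 epithelium-, neutrophil- and erythroid-like cells held the last 5. Between them lay the stromal, macrophage, monocyte and alveolar type 2 classes. In erythroid-like cells hemoglobin took 38.2% of the sham UMIs. Most erythroid-like cells lay well below their class total: the median cell held 0.491% in sham and 0.801% in HIR, while single cells reached 26.2% and 23.1%.

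**Figure D1:**
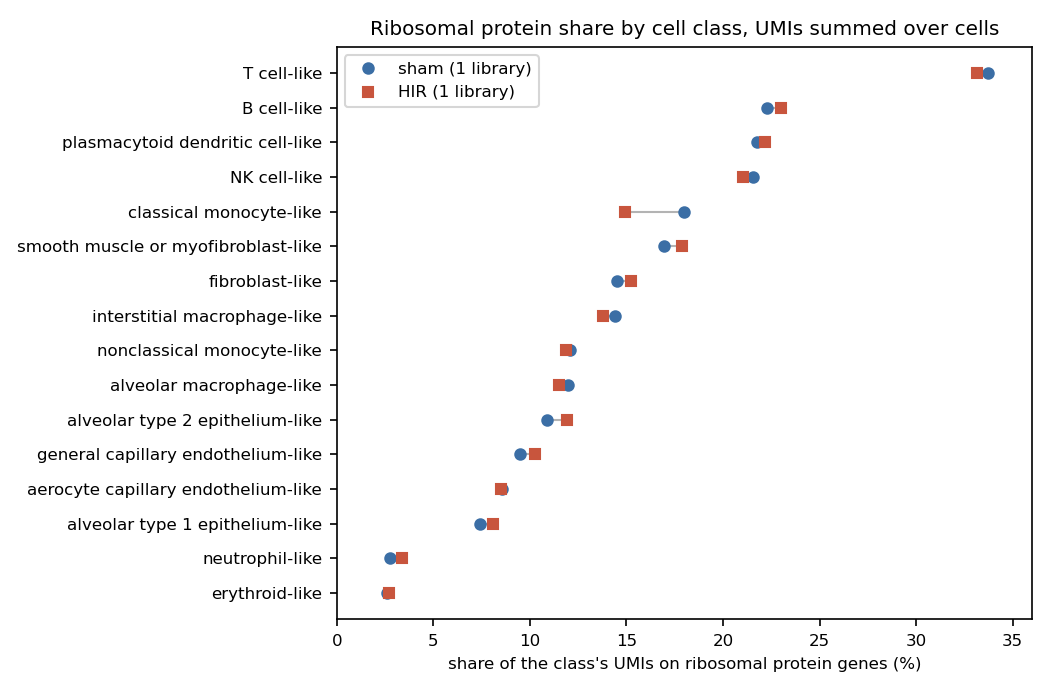
Share of each class's UMIs on ribosomal protein genes (x axis, percent), with UMIs summed over the cells of a class; circles are the sham library and squares the HIR library. Classical monocyte-like cells show the widest gap, from 17.98% to 14.9%, and most other pairs nearly overlap.

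Between the libraries the share moved little in most classes. It was higher in HIR in 9 of the 16 classes and lower in 7, with a median log2 ratio of 0.04. Over all kept cells it was 13.5% in sham and 13.2% in HIR, a ratio of 0.977 (0.976 to 0.978), and over all barcodes 12.8% in both. The libraries differed in their make-up, with 265 sham and 1262 HIR neutrophil-like cells and 343 and 228 T cell-like cells. The part of this in the ratio over all kept cells was not tested. Of the 16 classes, 1 lay more than 1.1-fold above the sham value (neutrophil-like) and 1 more than 1.1-fold below it (classical monocyte-like).

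Classical monocyte-like cells, the inflammatory monocytes of the blood, had the lower share in the HIR library. It was 17.98% in 91 sham cells and 14.9% in 174 HIR cells, a ratio of 0.829 (0.823 to 0.834). The same held per cell: the median cell held 17.7% in sham and 14.1% in HIR, with the middle part of the cells (first to last quartile) between 15.95% and 19.2% and between 12.4% and 16.1%. These quartile ranges overlapped only at their edges. By share the class moved from the fifth place in the sham library to the seventh in the HIR library. The mean of ribosomal protein UMIs per cell was 1441 in sham and 1511 in HIR. The total UMIs per cell, given as a median and not a mean, were 8182 and 9801.5.

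The lower level in these cells ran through nearly all members of both subunits. Of 74 measured members (at least 20 CPM on average, where CPM is the count per 1000000 UMIs of that class, and at least 50 UMIs over both libraries), 68 were lower in HIR by any amount, against a background of 51.7% of all 4126 measured features. They comprised 28 of 29 small-subunit, 36 of 38 large-subunit and 2 of 2 measured stalk features. The members' median log2 ratio was -0.27 and that of all measured features -0.02. Past 1.5-fold was 1 member alone, where the background was 15.9% of features lower and 14.9% higher.

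That member was Rpl13a, a large-subunit protein that can leave the ribosome in inflammatory signalling, at 225 CPM in sham and 130 CPM in HIR, a ratio of 0.580 (0.473 to 0.713). Rplp0, the base of the stalk, was at 8168 and 6010 CPM, a ratio of 0.736 (0.713 to 0.760). Rpl10, which joins the large subunit late and completes it, was at 4862 and 3561 CPM, a ratio of 0.732 (0.703 to 0.763). Each of these 3 was lower in HIR by more than its counting interval. Rpl13a lay far below Rplp0 and Rpl10 in level, and such values can hang on how reads shared with near-identical copies were assigned. Rpl3, which lies near the centre where peptide bonds are made, was at 2055 and 1625 CPM and Rpsa, a small-subunit protein first known as a laminin receptor, at 3074 and 2341 CPM. The 6 members that were higher included Rps27l, a paralog of Rps27 that p53 induces, at 148 and 219 CPM (ratio 1.48, 1.19 to 1.85), and Rpl22l1, a paralog of Rpl22, at 617 and 669 CPM.

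Some neutrophil markers were higher in the HIR cells of this gate and others were not. Of the 6 genes of the neutrophil list, 4 were higher in HIR classical monocyte-like cells, where 48.3% of all measured features were. The list summed to 2505 CPM in sham and 20823 CPM in HIR. Nearly all of it was S100a8 (1665 and 13072 CPM) and S100a9 (760 and 7604 CPM), which inflammatory monocytes also make. Csf3r, a defining marker of neutrophils, was at 80.9 and 57.8 CPM and Cxcr2, another, at 0 and 5 UMIs. Mmp9 was at 0 UMIs in both, and Il1r2 at 0 and 154 UMIs. The part of these genes in the lower share was not tested. Among cells whose gate and cluster carried the same name, the ratio was as low, at 0.827 (84 sham and 145 HIR cells). The mitochondrial part of the UMIs was 7.79% and 7.49%.

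**Figure D2:**
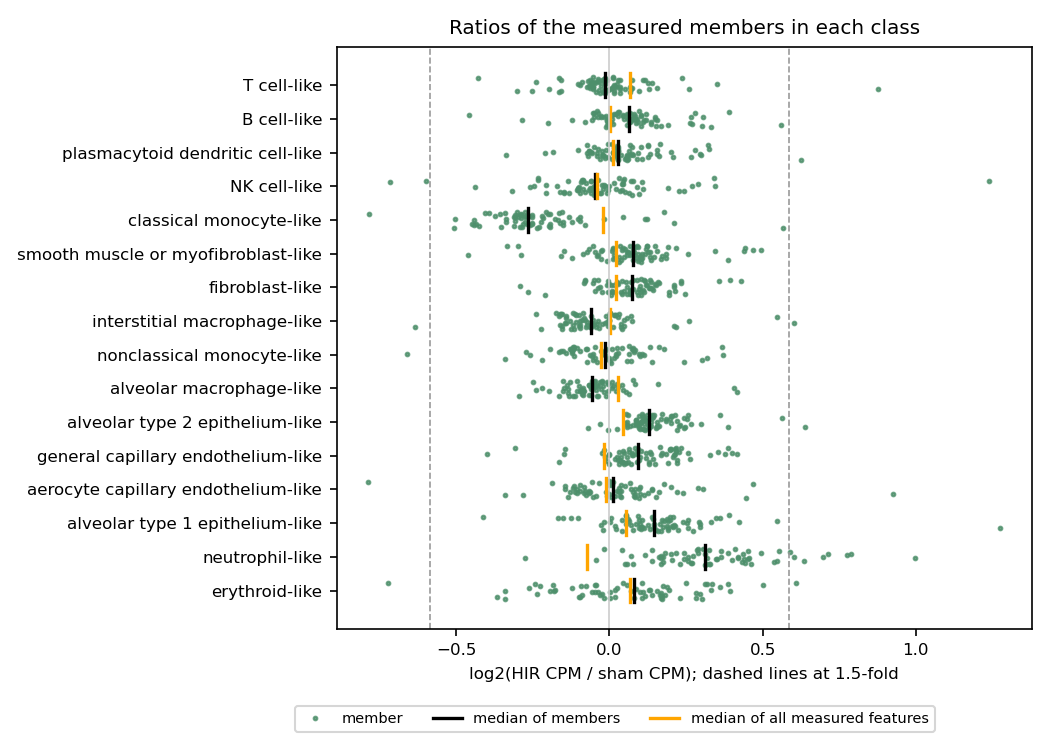
log2 ratio of HIR over sham CPM (x axis) for each measured ribosomal protein feature (points) in each class, with the median of the members in black, the median of all measured features in orange and 1.5-fold marked by dashed lines. Members of classical monocyte-like cells sit left of 0 around a median of -0.27 and those of neutrophil-like cells right of 0 around 0.31.

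Neutrophil-like cells held few ribosomal protein transcripts, and the direction of their difference depended on which cells were counted. Summed over the gate, the share was 2.76% in 265 sham and 3.37% in 1262 HIR cells, a ratio of 1.22 (1.20 to 1.24), and 66 of 69 measured members were higher by any amount, against 44.5% of all 3082 measured features. The median cell went the other way, with 1.70% in sham and 1.48% in HIR. The gate held 4 sham and 45 HIR cells that lay in monocyte clusters. Those had shares of 17.7% and 13.7% and gave 29.1% and 52.6% of the ribosomal protein UMIs of the gate. In the neutrophil clusters alone the share was 1.97% in 260 sham and 1.62% in 1212 HIR cells, a ratio of 0.825 (0.808 to 0.843).

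The same split showed in the members. Over the whole gate 8 of 69 were more than 1.5-fold higher and 0 lower, against a background of 14% and 18.7%; the highest were 1 feature of Rps27a, which is made as a fusion with ubiquitin (ENSRNOG00000034246, 40.2 and 80.2 CPM), and Rps2, at the message entry of the small subunit (343 and 592 CPM). In the neutrophil clusters alone 1 of 69 was higher and 13 lower, against a background of 11.8% and 25.5%. The higher one was the same Rps27a feature, on 14 and 134 UMIs (25.9 and 43.4 CPM). The Rps27a feature with more UMIs, ENSRNOG00000004426, was lower in HIR there, at 347 and 305 CPM. Rpl12, a protein at the foot of the stalk, was at 116 CPM in sham and 61.3 CPM in HIR there, and the small-subunit protein Rps28 at 238 and 135 CPM. Rps9, a small-subunit protein that helps keep decoding accurate, was at 1577 and 2267 CPM in these cells and so higher in HIR, unlike most others.

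**Figure D3:**
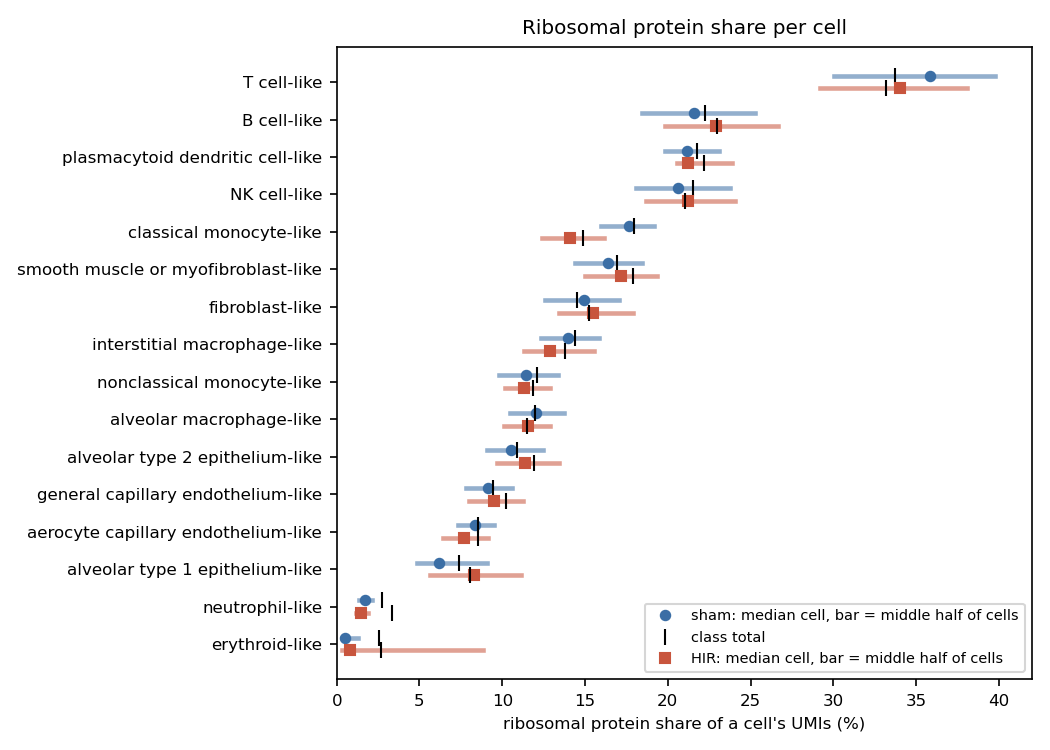
Ribosomal protein share of single cells (x axis, percent of a cell's UMIs): symbols are the median cell, bars run from the first to the last quartile, and black ticks mark the share of the summed class. In the neutrophil-like row the median cells (1.70% and 1.48%) lie left of the class totals (2.76% and 3.37%).

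In the epithelial and general capillary classes most members were higher in HIR, by small amounts. Alveolar type 2 epithelium-like cells, the surfactant makers, had a share of 10.9% in sham and 11.9% in HIR (ratio 1.09, 1.089 to 1.098), and 71 of 74 measured members were higher against 56.8% of all features there. Alveolar type 1 epithelium-like cells, the flat cells of gas exchange, had 7.40% and 8.07% (1.09, 1.080 to 1.103), with 64 of 72 higher against 55.5%. General capillary-like cells had 9.47% and 10.2% (1.08, 1.078 to 1.087), with 63 of 75 higher against 47.8%. None of these 3 ratios reached 1.1.

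In alveolar type 1 epithelium-like cells the value depended on the cells counted. The median UMIs per cell were 4819 in sham and 3377 in HIR. S100a8 and S100a9 summed to 23.9 and 1919 CPM in this gate, cycling genes to 164 and 10.5 CPM, and hemoglobin took 0.105% and 0.257% of the UMIs. The part of these in the result was not tested. With gate and cluster of the same name, the share was 5.98% in 154 sham and 7.76% in 183 HIR cells, a ratio of 1.298 (1.281 to 1.315). Of 71 members, 6 were then more than 1.5-fold higher (Rpl4, Rps12, Rps18, Rpl37 and 1 feature each of Rps19l2 and Rpl32), with 12.7% of all features past that fold. The general capillary ratio was 1.08 and the alveolar type 2 ratio 1.12 among such cells.

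Stromal and lymphoid classes lay near 1. Fibroblast-like cells had 14.5% and 15.2% (ratio 1.05) and smooth muscle-like cells 16.96% and 17.9% (ratio 1.05). Among fibroblast-like cells, those with alveolar markers had a ratio of 0.995 (95 sham and 50 HIR cells), those with adventitial markers 1.03 (1034 and 583 cells) and the others 1.03 (403 and 616 cells). The ratio of the whole class lay above all 3, and its make-up differed between the libraries. B cell-like cells were at 22.3% and 23.0% (1.03, 1.027 to 1.037), T cell-like cells at 33.7% and 33.2% (0.984, 0.980 to 0.988) and NK cell-like cells at 21.6% and 21.0% (0.976, 0.969 to 0.982). In NK cell-like cells the median cell went the other way, with 20.6% and 21.2%. Alveolar and interstitial macrophage-like cells were a little lower in HIR, with 12.0% and 11.5% (0.957) and 14.4% and 13.8% (0.958), and 59 of 74 members were lower in alveolar macrophage-like cells against 44.1% of all features. Plasmacytoid dendritic cell-like cells had a ratio of 1.02, nonclassical monocyte-like cells 0.981 and aerocyte-like cells 0.997. The erythroid-like ratio of 1.05 had no stable direction. It was 0.914 once the median shift of all other features in that class, 0.19 on the log2 scale, was taken out, and 1.56 with each cell weighted alike.

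The balance of the subunits differed more between classes than between the libraries. Small-subunit features held 0.770 times the UMIs of large-subunit features in sham aerocyte-like cells and 0.973 times in sham neutrophil-like cells, the ends of the sham range, and 0.934 times in T cell-like cells. In HIR the ends were 0.784 in alveolar type 1 epithelium-like and 1.03 in neutrophil-like cells. The value was higher in HIR in 14 of 16 classes, as in classical monocyte-like cells (0.862 and 0.903) and general capillary-like cells (0.841 and 0.859), and lower in NK cell-like (0.949 and 0.925) and erythroid-like cells (0.867 and 0.821). In neutrophil-like cells the small-subunit member Rps9 held several times the part of ribosomal protein UMIs that it held in smooth muscle-like cells. Cells in monocyte clusters gave 52.6% of the ribosomal protein UMIs of the HIR neutrophil-like gate. The weight of either in the neutrophil-like balance was not tested. The classes share their library and are not replicates of each other. Counts of different members are not on 1 scale, since the length of the messages and the handling of near-identical copies differ between genes.

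A promoter feature that the rule did not use is shared by part of the genes. With the files' rat identifiers, promoters could be looked up only by symbol, in RefSeq mouse promoters of the build GRCm38.p6 (250 bases before to 50 after each start), where 61 of the 88 symbols had an entry. The letters CTTTCC, a short form of the pyrimidine tract, were searched on the gene strand within 25 bases on either side of the start, and 11 of the 61 symbols (18.03%) held them, against 2.92% of all 27025 symbols. Over the full 300 bases and both strands the shares were 54.1% and 29.3%. CCGGAAG, letters that ETS-family factors bind, stood on either strand of 39.3% of the members' promoters and of 9.93% of all. TATAAA on the gene strand between 40 and 20 bases before the start was found for 1.64% and 2.25%. A match is a description of the letters and not a binding site. Below are 30 bases each for 3 members with CTTTCC (in capitals) and 4 without these letters that stand out in the results. All are 5′ to 3′ on the gene strand. A window without CTTTCC can still hold a run of pyrimidines, as that of Rpl22l1 does. The windows of the first 3 are centred on CTTTCC and those of the other 4 on the start. The first base after the 250 upstream bases is counted as position 0. CTTTCC then begins at position 9 in Rpl13a, -5 in Rpl35 and 1 in Rps27.
Rpl13a (chr7:45128719-45128748, minus strand): caagacctcctcCTTTCCcaggcggctgcc
Rpl35 (chr2:39005119-39005148, minus strand): gtcggccccgccCTTTCCtctttctctcga
Rps27 (chr3:90213630-90213659, minus strand): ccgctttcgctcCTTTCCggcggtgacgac
Rps27l (chr9:66946071-66946100, plus strand): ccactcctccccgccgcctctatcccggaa
Rps25 (chr9:44407699-44407728, plus strand): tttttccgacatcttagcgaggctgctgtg
Rpl22l1 (chr3:28805493-28805522, plus strand): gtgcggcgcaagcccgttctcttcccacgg
Rpl37 (chr15:5116598-5116627, plus strand): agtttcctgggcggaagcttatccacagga
Of the 3 shown with CTTTCC, Rpl13a was lower in HIR in 11 of 16 classes, while Rps27 and Rpl35 were higher in 11 of 16.

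The members differed in level over a wide range. Of the 98 features, 50 had at least 100000 UMIs over both libraries, 19 had 10000 to 99999, 10 had 1000 to 9999, 10 had 50 to 999, 8 had 1 to 49 and 1 had 0. In all 16 classes 69 were measured, and 18 in none. The 10 with the most UMIs, among them Rpl41, Rplp1, Rplp0, Rps27 and Rpl37a, held 29.3% of all ribosomal protein UMIs. Rpl41, the shortest protein of the large subunit, led with 514058 UMIs or 4.39%. Several core genes were listed far below the rest: Rps6, the substrate of the S6 kinases, with 159 UMIs, Rpl35a with 2, and Rpl8 and Rpl38 with 1 each. Such values can hang on how reads shared with near-identical copies were assigned, and no level of these genes is read from them.

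Few members differed by more than 1.5-fold between the libraries. Of 1183 measured pairs of a member and a class, 16 were higher and 7 lower in HIR (1.35% and 0.592%), against a background of 7.36% and 7.08% of 64106 pairs of any feature and a class. Among pairs with a mean of at least 100 CPM, 3 were higher and 1 lower, against 5.62% and 6.11% of 19914. Of the 16 higher pairs, 8 lay in neutrophil-like cells.

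The pairs outside neutrophil-like cells were mostly features of low level. Rpl9, a large-subunit protein, was at 33.6 CPM in sham and 79.2 CPM in HIR NK cell-like cells (ratio 2.36, 1.46 to 3.90) and at 19.8 and 30.8 CPM in alveolar type 2 epithelium-like cells. Rpl36al, a paralog of Rpl36a, was at 20.8 and 50.3 CPM in alveolar type 1 epithelium-like, 30.4 and 57.7 CPM in aerocyte-like and 50.4 and 77.7 CPM in plasmacytoid dendritic cell-like cells. In these 3 classes it was higher in HIR, while it was level in T cell-like cells (244 and 256 CPM). The stalk protein Rplp2 passed the minimum in T cell-like cells alone, at 19.9 and 36.5 CPM. Rpl9 and Rplp2, like Rpl13a, lay far below most core subunits. Their values can hang on how reads shared with near-identical copies were assigned. Rps19bp1, a protein that binds Rps19 and is no subunit, was at 119 and 68.9 CPM in aerocyte-like cells and at 41.7 and 63.3 CPM in interstitial macrophage-like cells, so it lay in opposite directions in these classes. Rpl13a was also lower in nonclassical monocyte-like cells (109 and 68.9 CPM, ratio 0.632, 0.375 to 1.02). The other lower pairs rested on few UMIs: the Rps10 feature ENSRNOG00000000490 (33 and 19 UMIs in NK cell-like, 35 and 16 in interstitial macrophage-like cells), Rps18l1 (40 and 25 UMIs in NK cell-like cells) and Rps25 in erythroid-like cells.

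A few members lay on the same side in nearly all classes. Of 69 members measured in every class, 5 were higher in HIR in at least 14 classes and 1 was lower in at least 14, against a background of 4.03% and 6.42% of 794 features. Taking both directions together, this was about as frequent among members as among all features. Members' median log2 ratios over classes ran from -0.20 to 0.37. All classes of a library were made together, so these counts are not independent.

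The Rps19l2 feature ENSRNOG00000037897, a copy related to the small-subunit gene Rps19, was higher in HIR in 16 of 16 classes, with a median log2 ratio of 0.37. It stood at 1515 CPM in sham and 1931 CPM in HIR T cell-like cells (ratio 1.27, 1.21 to 1.34). In fibroblast-like cells it was at 513 and 690 CPM (1.35, 1.28 to 1.42) and in general capillary-like cells at 419 and 553 CPM (1.32, 1.25 to 1.39). The difference was least in alveolar macrophage-like cells, at 1177 and 1231 CPM. With clusters in place of gates it was higher in 14 of 15 classes.

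The large-subunit gene Rpl32 is listed as a pair of features that did not move alike. ENSRNOG00000032605 was higher in HIR in 15 of 16 classes, with a median log2 ratio of 0.34, as in alveolar type 2 epithelium-like cells (182 and 269 CPM, ratio 1.48, 1.34 to 1.63) and T cell-like cells (716 and 858 CPM, 1.20). ENSRNOG00000010746 was higher in 8 of 16, with a median of 0.00, and stood at 1164 and 1176 CPM in T cell-like and 328 and 383 CPM in alveolar type 2 epithelium-like cells. In classical monocyte-like cells the first was at 276 and 319 CPM and the second at 494 and 404 CPM, so they lay in opposite directions. Reads that fit both features could be split between them by the counting, so a sum may differ from either.

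Rpl30, a large-subunit protein, was higher in HIR in 15 of 16 classes, with a median log2 ratio of 0.24. It was at 750 CPM in sham and 959 CPM in HIR general capillary-like cells (ratio 1.28, 1.23 to 1.33) and at 2738 and 3049 CPM in T cell-like cells. The exception was classical monocyte-like cells, at 1519 and 1303 CPM. As a part of the ribosomal protein UMIs it was higher in all 16 classes. Rpl37, another large-subunit protein, was higher in 14 of 16, with a median of 0.18, as in general capillary-like cells (1248 and 1622 CPM), and lower in classical monocyte-like cells (2803 and 2163 CPM). Rpl17 was higher in 14 of 16 with a median of 0.07. The Rps27a feature ENSRNOG00000034246 was higher in 13 and Rps15, near the decoding centre, in 12. The Rps27a feature with more UMIs, ENSRNOG00000004426, did not always move alike. In NK cell-like cells with gate and cluster of the same name it was at 4185 and 4221 CPM, and ENSRNOG00000034246 at 372 and 479 CPM.

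Rps25, a small-subunit protein needed for initiation at some viral internal entry sites, was lower in HIR in 14 of 16 classes, with a median log2 ratio of -0.20. In smooth muscle-like cells it was at 429 CPM in sham and 340 CPM in HIR (ratio 0.793, 0.713 to 0.882), in fibroblast-like cells at 328 and 283 CPM (0.864, 0.803 to 0.929) and in plasmacytoid dendritic cell-like cells at 606 and 480 CPM. The exceptions were the epithelial classes, with 237 and 248 CPM in alveolar type 2-like and 167 and 172 CPM in type 1-like cells. Weighting each cell alike, it was lower in all 16. Rpl22l1 was lower in 13 of 16 classes, as in T cell-like cells (1875 and 1586 CPM), and Rpl36a in 12 of 16. Rpl13a and Rps27l were lower in 11 of 16, and Rps28 in 10 of 16.

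**Figure D4:**
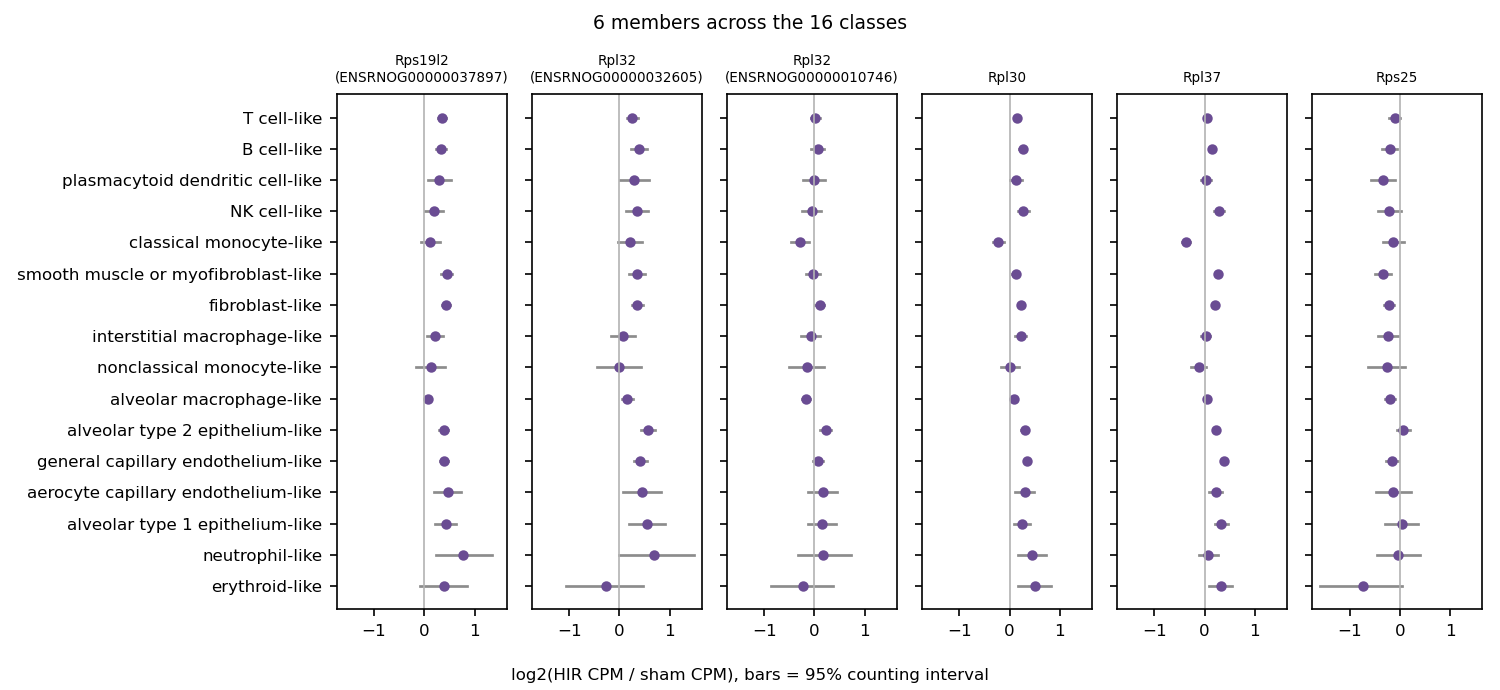
log2 ratio of HIR over sham CPM (x axis) of 6 members in each of the 16 classes; points are the ratio of the summed counts and bars the 95% counting interval. The Rps19l2 feature lies right of 0 in every row and Rps25 left of 0 in 14 rows, and the Rpl32 features differ.

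Stalk proteins and abundant members differed little between the libraries, and not all in the same direction. Rplp0 was higher in HIR in 8 of 16 classes and Rplp1 in 10 of 16, with median log2 ratios of 0.02 each. In T cell-like cells Rplp0 stood at 9367 and 9306 CPM and in general capillary-like cells at 1862 and 2044 CPM. Rpl41 was lower in 11 of 16, as in T cell-like cells (ratio 0.871, 0.855 to 0.888, where the class share had 0.984), and as a part of the ribosomal protein UMIs it was lower in 14 of 16. Rpsa was higher in 10 of 16. Rpl3 was higher in 13 and Rpl10 in 10 of 16.

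The make-up of the ribosomal protein UMIs was alike across classes for most members, and a few marked a class. As a part of these UMIs, the highest class exceeded the lowest by a median of 1.70-fold in sham and 1.63-fold in HIR, over 71 members with at least 100 CPM in their highest class. More than 2-fold apart were 18 members in sham and 15 in HIR. Rpsa was the most even, at 1.25-fold in sham.

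Rps27l differed most. It made up 0.466% of the ribosomal protein UMIs in sham aerocyte-like cells and 0.0365% in B cell-like cells, 12.8-fold apart, and 15.96-fold apart in HIR. Its CPM in the sham and HIR libraries was 399 and 350 in aerocyte-like and 381 and 308 in general capillary-like cells. Macrophages lay close behind, with 338 and 307 CPM in alveolar and 318 and 307 CPM in interstitial macrophage-like cells. Alveolar type 1 epithelium-like cells held 299 and 224 CPM, smooth muscle-like cells 294 and 270 CPM and alveolar type 2 epithelium-like cells 187 and 223 CPM. B cell-like cells held 81.2 and 59.2 CPM, and neutrophil-like cells were lower still in both libraries, at 41.96 and 44.3 CPM. Its paralog Rps27 ran the other way, with 7766 and 8174 CPM in B cell-like and 2429 and 2572 CPM in aerocyte-like cells.

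Rps9 made up 6.49% of the ribosomal protein UMIs in sham and 7.19% in HIR neutrophil-like cells, against 1.11% in sham smooth muscle-like cells. Its CPM of 1790 and 2420 in neutrophil-like cells lay near the 1886 and 2053 CPM of smooth muscle-like cells, although the class share was several times lower. Rpl31, a large-subunit protein at the tunnel exit, stood at 1600 and 1677 CPM in plasmacytoid dendritic cell-like cells and at 763 CPM in T cell-like cells of both libraries. It was 0.736% of the ribosomal protein UMIs in the former and 0.210% in B cell-like cells. Rpl10 was highest in nonclassical monocyte-like cells (3.11%) and lowest in T cell-like cells (1.03%). The Rps19l2 feature above was highest in alveolar macrophage-like cells (0.981%). Rps27l, Rps9 and Rpl31 had the same highest class in both libraries.

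**Figure D5:**
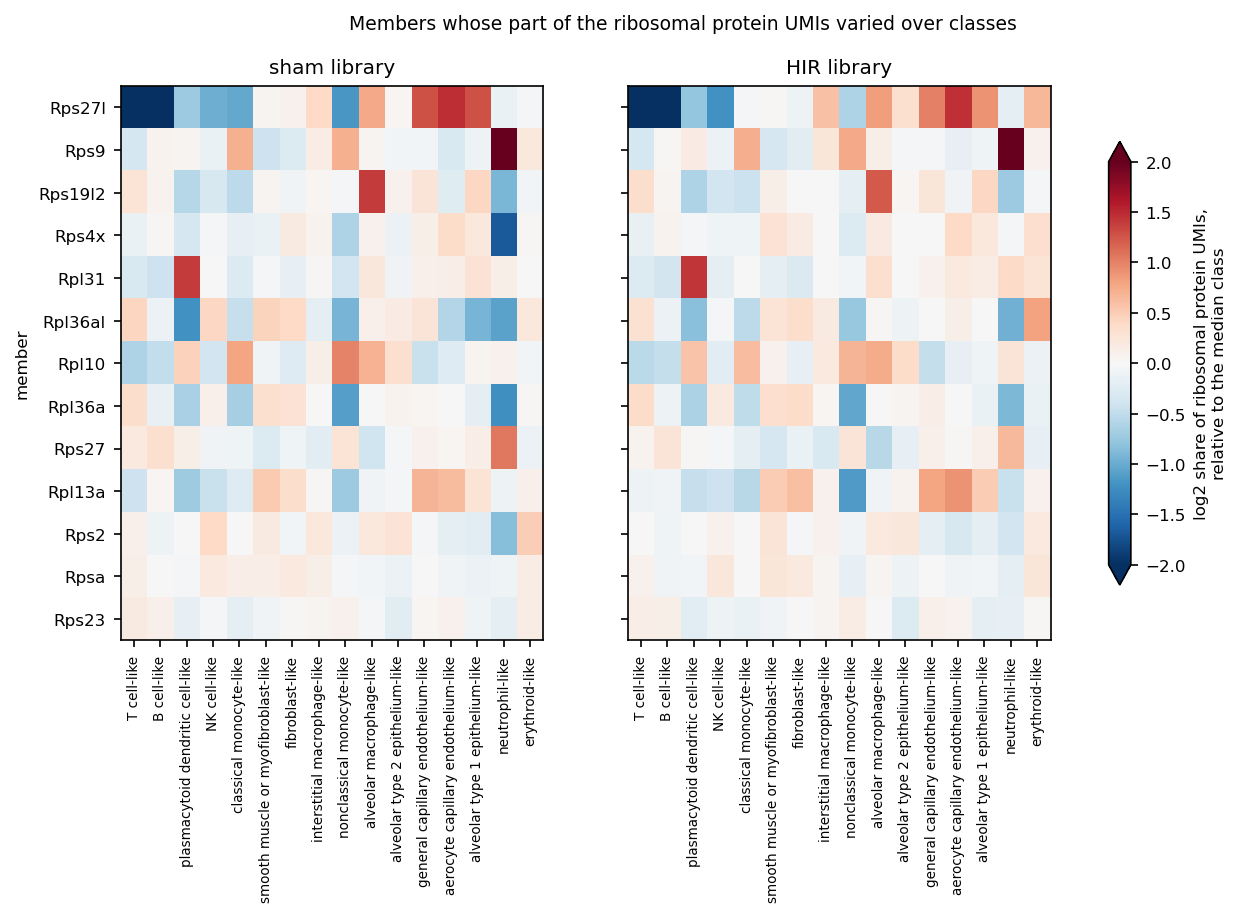
Part of the ribosomal protein UMIs taken by 13 members (rows) in each class (columns), as log2 relative to the median class, in the sham and the HIR library; red is above and blue below the median class. Rps27l is deep blue in T cell- and B cell-like cells and red in endothelium, Rps9 red in neutrophil-like cells and Rpl31 in plasmacytoid dendritic cell-like cells in both panels.

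The features that are no core subunits held 1.38% of the ribosomal protein UMIs in all. Rpl22l1, Rps27l and the first Rps19l2 feature made up most of them. Rps4y2, a paralog of Rps4x, passed the minimum in 3 classes and stood at 60.8 and 71.8 CPM in aerocyte-like and 56.7 and 50.6 CPM in general capillary-like cells. Rps18l1 was at 63.3 and 51.4 CPM in T cell-like cells. Rpl3l, which replaces Rpl3 in striated muscle, had 139 UMIs over both libraries. Rpl7l1 (242), the Rpl35al1 features (250 and 308), Rpl30l1 (71), Rps10l1 (65) and the second Rps19l2 feature (67) had few UMIs and were measured in no class.

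Subunit genes with symbols outside the rule were also looked at. Rack1, a scaffold on the small subunit, was higher in HIR in 12 of 16 classes. It stood at 1024 CPM in sham and 918 CPM in HIR classical monocyte-like cells and at 563 and 576 CPM in general capillary-like cells. Fau, a fusion of a ubiquitin-like and a small-subunit protein, is listed at 0 in all 16 classes.

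Genes that make or drive ribosomes were taken from lists. In ribosome biogenesis 11 of 228 measured pairs of a gene and a class were over 1.5-fold higher and 12 lower, with a median of the class medians of 0.05. Among translation factors 10 of 274 were higher and 11 lower, and among mitochondrial ribosomal proteins 21 and 49 of 788. These shares, 2.66% to 6.22%, lay below the 7.36% and 7.08% of all pairs. In the mTORC1 list 16 of 114 were higher (14.04%) and 4 lower (3.51%). Most of these higher pairs were of 1 gene, Ddit4, an inhibitor of mTORC1.

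In classical monocyte-like cells 6 of 17 measured translation factors were over 1.5-fold lower in HIR, where 15.9% of all features were, with a median log2 ratio of -0.32. Eef1a1, which brings aminoacyl-tRNA to the ribosome, was at 554 CPM in sham and 314 CPM in HIR, and Eef2, which moves the ribosome along, at 1260 and 795 CPM. Pabpc1, the poly(A)-binding protein, was at 529 and 302 CPM. In the same cells 4 of 15 biogenesis genes were over 1.5-fold higher and 1 lower, where 14.9% of all features were higher, with Nop58 at 23.3 and 54.4 CPM and Nop16 at 26.1 and 66.9 CPM. The median log2 ratio of the 15 measured biogenesis genes was 0.23, against -0.02 for all features. The sum of the list, in which abundant genes weigh most, did not rise. It was 1874 CPM in sham and 1770 CPM in HIR (ratio 0.944, 0.886 to 1.007). Of 52 measured mitochondrial ribosomal proteins, 10 were higher and 6 lower in these cells, both near the shares of all features, with a median log2 ratio of 0.10.

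Ddit4, an inhibitor of mTORC1, led that list, over 1.5-fold higher in HIR in 9 of 16 classes with a median log2 ratio of 0.99. It stood at 28.8 CPM in sham and 224 CPM in HIR classical monocyte-like cells, and at 227 and 660 CPM in fibroblast-like cells. It was also higher in general capillary-like cells, at 283 and 830 CPM, where the ribosomal protein share was higher in HIR. In neutrophil-like cells it was at 341 CPM in both libraries. Its part in the ribosomal protein share was not tested.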

How the data were processed

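The deposited matrices hold counts of UMIs per feature and cell barcode, not normalized. The submitters' processing notes list Cell Ranger 6.0, Seurat 4.0, STAR and the build mm10, while cellranger 5.0.0 wrote the matrices, per the file headers. How reads shared by several copies were assigned is not given in the sources used here.

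Kept barcodes had 200 or more genes and no more than 20% mitochondrial UMIs, and those with the highest Scrublet scores (scanpy 1.11.5) were left out as doublets at 0.8% per 1000 barcodes (919 sham and 722 HIR). Cells were gated on 6 markers per class. Leiden clusters (igraph 0.11.9, resolution 1, 30 components, 15 neighbours, 2000 variable genes) served as an alternative. UMIs were summed per library and class. CPM ratios with exact conditional 95% intervals (scipy 1.17.1) cover counting error only. They were tried on simulated counts that held counting error alone. That trial says nothing of the spread between cells or libraries. Replicates were lacking, so no test was run. The median UMIs per barcode were 3426 and 3094.

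The members, marker lists and gene lists were chosen with earlier results of these data known. Named genes are the 10 members with the most UMIs, the 6 with the highest and the 6 with the lowest median log2 ratio, the 8 with the widest spread over classes, all non-core members with at least 50 UMIs, selected stalk and core proteins, and Fau and Rack1; a few genes that the rule names are not reported here. Members past 1.5-fold and further genes of the text were chosen after their values were seen.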

Additional observations from a re-analysis of the deposited data

Results flagged for a closer look

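The ribosomal protein share went in opposite directions in the neutrophil-like and the classical monocyte-like cells, and the difference was not tested, since there was 1 library per group. The HIR over sham ratio was 0.829 in classical monocyte-like cells and 1.22 in the neutrophil-like gate. The latter was below 1 in the neutrophil clusters alone (0.825), where both classes lay on the same side.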

How the results depend on the processing

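No paired analysis was possible because each group has 1 library and the groups share 1 replicate number. The classical monocyte-like ratio of the ribosomal protein share stayed below 1 in 12 of 12 alternatives (0.819 to 0.846), the alveolar macrophage-like ratio in 12 of 12 (0.936 to 0.966), and the general capillary, alveolar type 1 and alveolar type 2 ratios above 1 in all of theirs (1.05 to 1.101, 1.05 to 1.38 and 1.07 to 1.12). The neutrophil-like ratio of 1.22 stayed above 1 in 9 of 13 alternatives, up to 1.46 with 10% of UMIs taken as free RNA. It turned to 0.675 with Leiden clusters, 0.825 with gate and cluster of the same name (an alternative chosen after seeing the data), 0.976 with each cell weighted alike and 0.727 in cells of 2000 to 6000 UMIs. Median UMIs per cell in this gate were 1453 in sham and 2182 in HIR. Ratios of NK cell-, aerocyte- and erythroid-like cells kept their side in 8 of 13, 10 of 13 and 6 of 9 alternatives. The ratio over all kept cells (0.977) was 0.978 without a mitochondrial filter, 0.971 at a limit of 10%, 0.982 with doublets kept, 0.905 with each cell weighted alike, 0.924 in cells of 2000 to 6000 UMIs, 0.979 without mitochondrial and 0.968 without hemoglobin UMIs, and 0.980 scaled by the other features. In cells of 2000 to 6000 UMIs, 3 of 9 classes were lower. Member and class pairs over 1.5-fold higher, 16 in all, came to 25 with a gate of 2 markers, 25 with Leiden clusters, 55 with each cell weighted alike, 8 in cells of 2000 to 6000 UMIs, 57 with 10% of UMIs taken as free RNA, 53 without a filter on low values and 3 at 100 CPM or more. Lower pairs, 7 in all, came to 3 at a mitochondrial limit of 10%, 3 with a gate of 4 markers, 52 with Leiden clusters, 19 with gate and cluster of the same name, 39 in cells of 2000 to 6000 UMIs, 49 without the filter and 1 at 100 CPM or more. The causes were not tested. Depth limits the features under 50 UMIs and the classes near 50 cells.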
